A study of Phragmites australis with 7 samples.

Results

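CML42, a calmodulin-like gene, is PaChr3.1219 of common reed (Phragmites australis), and it was followed here as 1 of the 42095 features counted in single cells of reed shoots. The gene was chosen by its measured levels in protoderm and epidermal cells of these same libraries, so its levels across cell types are given as a description with no test. The data are 6 single-cell RNA libraries made with the 10x Genomics 3′ kit, 1 library per plant. NAint61, NAint113 and NAint191 came from the North American invasive population, and EU60, EU78 and EU620 from the European population (3 plants each). All plants stood untreated in one common garden, and each library pooled several rhizome buds of 1 plant that were digested to protoplasts, cells stripped of their wall by enzymes. The labels place NAint113, EU60 and EU78 in batch 1, NAint191 and EU620 in batch 2 and NAint61 alone in batch 3.

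Calmodulin-like proteins carry EF hands, loops that bind calcium, and pass calcium signals on to partner proteins. In Arabidopsis, plants that lack CML42 form trichomes with more branches, the protein binds the kinesin-interacting calcium-binding protein KIC, and the gene has been linked to defence against insects through jasmonate. The protoderm is the outermost cell layer of a young organ and gives rise to the epidermis with its cuticle, stomata and hairs. Whether the reed gene has any of these roles was not measured. Reed is a polyploid, and near-identical copies of a gene can share reads, so the level of CML42 is uncertain to that extent.

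After removal of cells with few genes and of doublets, 58021 cells were retained, between 6493 (EU620) and 13236 (NAint113) per library, with a median of 5969.5 to 11612 unique molecular identifiers (UMIs, single RNA molecules counted once) per cell. Any pair of libraries shared 14 to 52 cell barcodes, at most 0.451% of the smaller library. The cells fell into 31 clusters, of which 28 were named by markers of the study, and a name ending in "-like" marks such a cluster. The names were rebuilt and can differ from those of the study. No cluster took the ground meristem name, whose markers partly overlap those of the type that the study left unclassified. CML42 was left out of the embedding, in which it would otherwise have been among the 3000 variable genes. The 7 protoderm-like and epidermal cell-like clusters, here called the epidermal clusters, held 13623 cells. The bud section was not analysed here, since its table lists 42035 features and CML42 is among the 60 single-cell features it does not list.

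CML42 was an abundant transcript, with 424199 UMIs in the retained cells. Its level, the UMIs of the gene per 1000000 UMIs of the same cells (CPM), was 826, 781.6 and 373 CPM for plants NAint61, NAint113 and NAint191, against 797, 550 and 874 CPM for plants EU60, EU78 and EU620. Each population thus had 1 library below the other 2, and the ranges overlapped. The epidermal clusters had 963, 1192 and 477 CPM in NAint61, NAint113 and NAint191, against 998, 667 and 1413 CPM in EU60, EU78 and EU620. In all other clusters together it was 777, 616 and 330 CPM in the invasive libraries and 723, 497 and 669 CPM in the European libraries, in the same order. The epidermal level was above that of the other clusters in 6 of 6 libraries, by 1.24-fold in NAint61, 1.94-fold in NAint113, 1.45-fold in NAint191, 1.38-fold in EU60, 1.34-fold in EU78 and 2.11-fold in EU620. The epidermal clusters made up 23.5% of the cells and held 38.4% of the CML42 UMIs, so most molecules of this transcript lay outside these clusters.

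**Figure D1:**
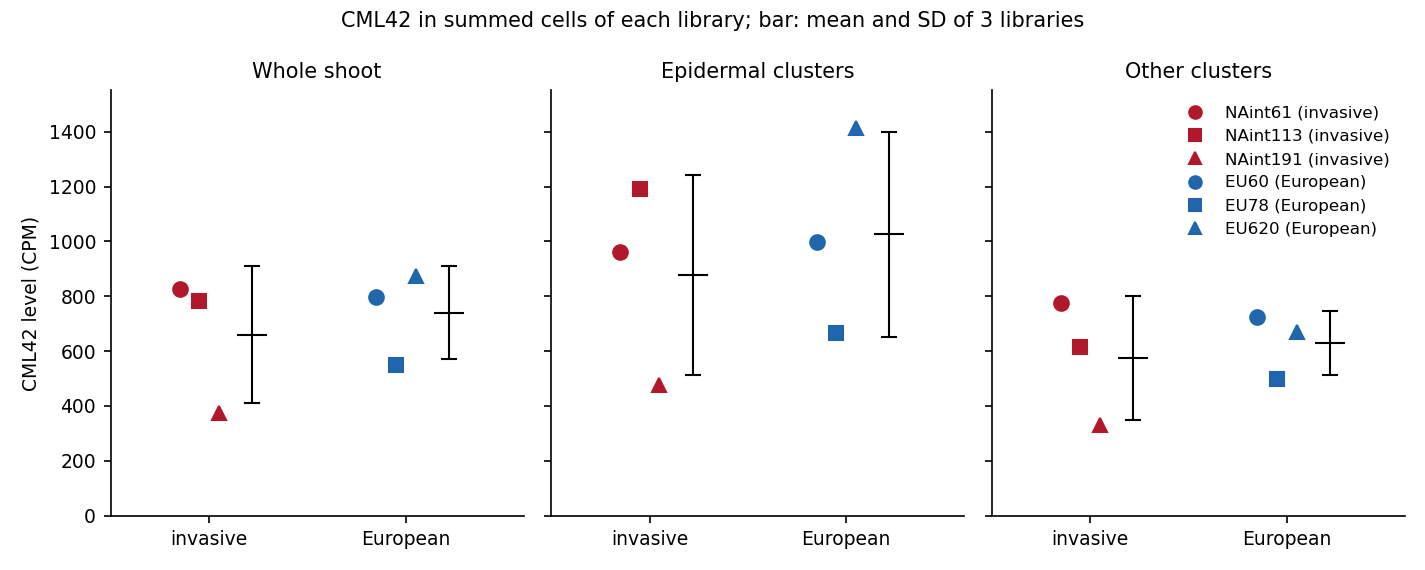
CML42 level (CPM, vertical axis) in the summed cells of each library, for the whole shoot, the epidermal clusters and the other clusters, with invasive libraries (red) left of European libraries (blue). Bars show the mean and SD of 3 libraries per population, and the populations overlap in each panel, for example 660 ± 250 CPM in invasive and 740 ± 169 CPM in European whole shoots.

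Among the named classes, Protoderm2-like cells had the highest mean level, 1250 ± 446 CPM (SD, n = 6 libraries). It was 1337, 1393 and 845 CPM in NAint61, NAint113 and NAint191, against 1306, 681 and 1940 CPM in EU60, EU78 and EU620. Epidermal cell2-like cells followed closely at 1150 ± 406.1 CPM, with 1244, 1371 and 538 CPM in the invasive libraries and 1456.7, 759 and 1531.6 CPM in the European libraries. These 2 classes are neighbours that did not differ beyond their spread over libraries. The other epidermal classes sat near the middle of the order. Protoderm1-like cells averaged 699 ± 302 CPM, with 633, 1211 and 528 CPM in the invasive libraries and 438, 476 and 908 CPM in the European libraries. Epidermal cell1-like cells averaged 624 ± 247 CPM, with 707.9, 638 and 245 CPM in the invasive libraries and 492, 667 and 992.9 CPM in the European libraries. The 4 epidermal classes were therefore not alike, and the classes numbered 2 were the higher ones.

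Protoderm and epidermal cells were then set against each other within each library. With both protoderm-like classes joined, and both epidermal cell-like classes joined, the level was 1024 in protoderm against 933 CPM in epidermal cells of NAint61, 1372 against 965 CPM in NAint113 and 738.8 against 442 CPM in NAint191. In the European libraries it was 1155.5 in protoderm against 865 CPM in epidermal cells of EU60, 646 against 697 CPM in EU78 and 1547 against 1376 CPM in EU620. Protoderm was the higher of the 2 in 5 of 6 libraries, with EU78 as the exception. The mean log2 ratio was 0.31 ± 0.30 (SD, n = 6), or 1.24-fold. Joining weighs the classes unequally. Protoderm2-like and Protoderm1-like cells held 8.92% and 2.38% of all UMIs, Epidermal cell2-like and Epidermal cell1-like cells 8.91% and 8.29%. In EU60 both protoderm classes were below the epidermal cell class of the same number (438 against 492 and 1306 against 1456.7 CPM). The joined ratio thus also reflects the mix of classes, whose part was not tested. Protoderm2-like over Epidermal cell2-like gave a smaller ratio, above 0 in 4 of 6 libraries, with a mean log2 ratio of 0.13 ± 0.31. EU60 and EU78 had more CML42 in Epidermal cell2-like cells, at log2 ratios of -0.16 and -0.16. This second ratio was above 0 in only 3 of 6 libraries with doublets kept, with cells thinned to 2000 UMIs and with CML42 allowed into the embedding, and in 4 of 6 at the finer clustering. The ratio of joined classes was 0.30 higher on the log2 scale in the invasive libraries, a difference that a two-sided exact permutation test over libraries did not separate from 0 (p = 0.3), where 3 against 3 libraries cannot give a p below 0.1. For the pair of classes numbered 2 the difference between populations was 0.25 (exact permutation p = 0.5).

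**Figure D2:**
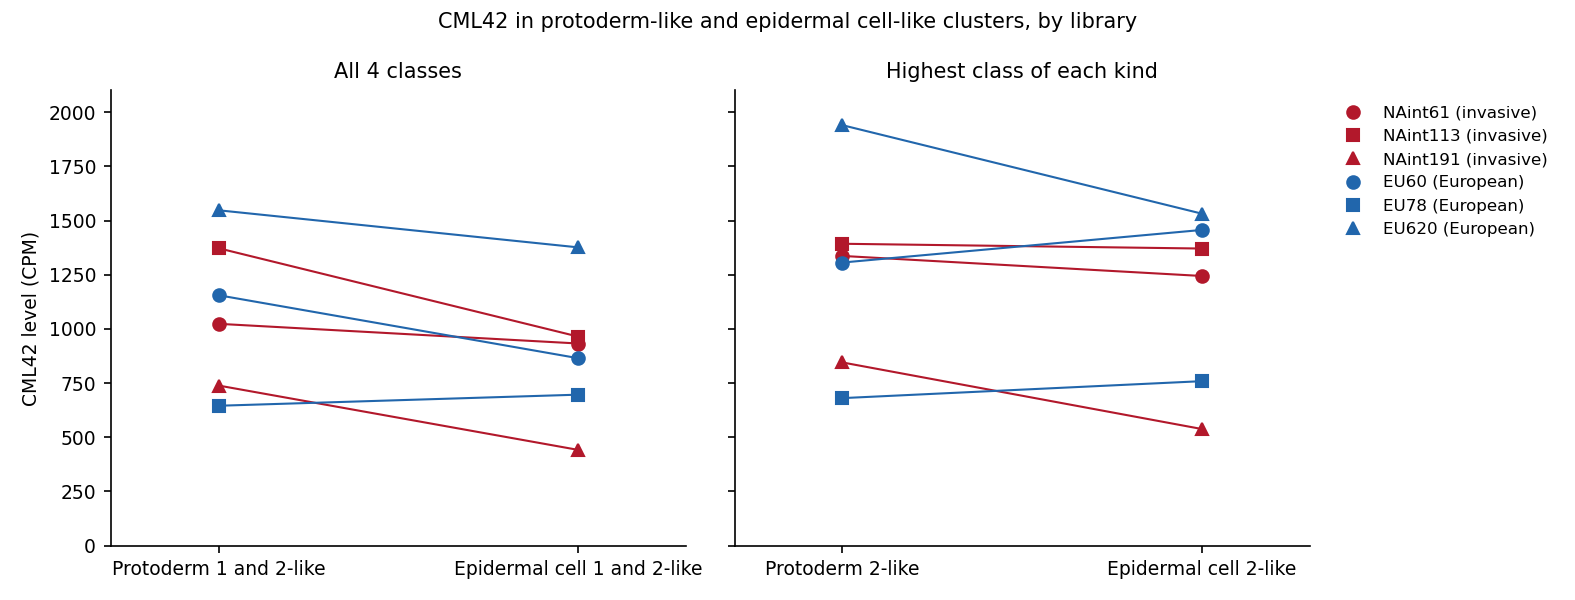
CML42 level (CPM, vertical axis) in protoderm-like clusters and epidermal cell-like clusters, 1 line per library, for all 4 classes (left panel) and for the higher class of each kind (right panel). Lines fall to the right where protoderm is higher, which holds for 5 of 6 libraries on the left and 4 of 6 on the right.

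By single cluster, high levels were found within and outside the epidermal clusters. The highest mean level, 1352 CPM, was in cluster 18, a Xylem-like cluster of 1081 cells, and ranged over libraries between 644 CPM (NAint191) and 1794 CPM (NAint113). This cluster also held PDF1 (PaChr8.1038), a homologue of an Arabidopsis gene of protoderm cells, at 2475 CPM. That level was exceeded only in the Epidermal cell2-like clusters 27 and 17 (8888 and 8457 CPM). LTP3, a lipid transfer protein gene, had 1422 CPM in cluster 18. Whether cluster 18 mixes cells of xylem and epidermis was not tested. After it came the Epidermal cell2-like cluster 27 (1273 CPM), the Protoderm2-like cluster 2 (1250 CPM), the Epidermal cell2-like clusters 10 (1118 CPM) and 17 (1052 CPM), cluster 14 of the type that the study left unclassified (1030 CPM) and the Chlorenchyma-like cluster 16 (1028 CPM). The name of cluster 14 was not stable either, since a cluster that shared several of its leading genes was Vascular tissue-like at the finer clustering. The order of neighbours was loose. Cluster 18 was above cluster 27 in 4 of 6 libraries, cluster 27 above cluster 2 in 2 of 6, and cluster 2 above cluster 10 in 4 of 6. The lowest level was in dividing cells, the G2/M phase-like cluster 26, at 363 ± 164 CPM (SD, n = 6).

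**Figure D3:**
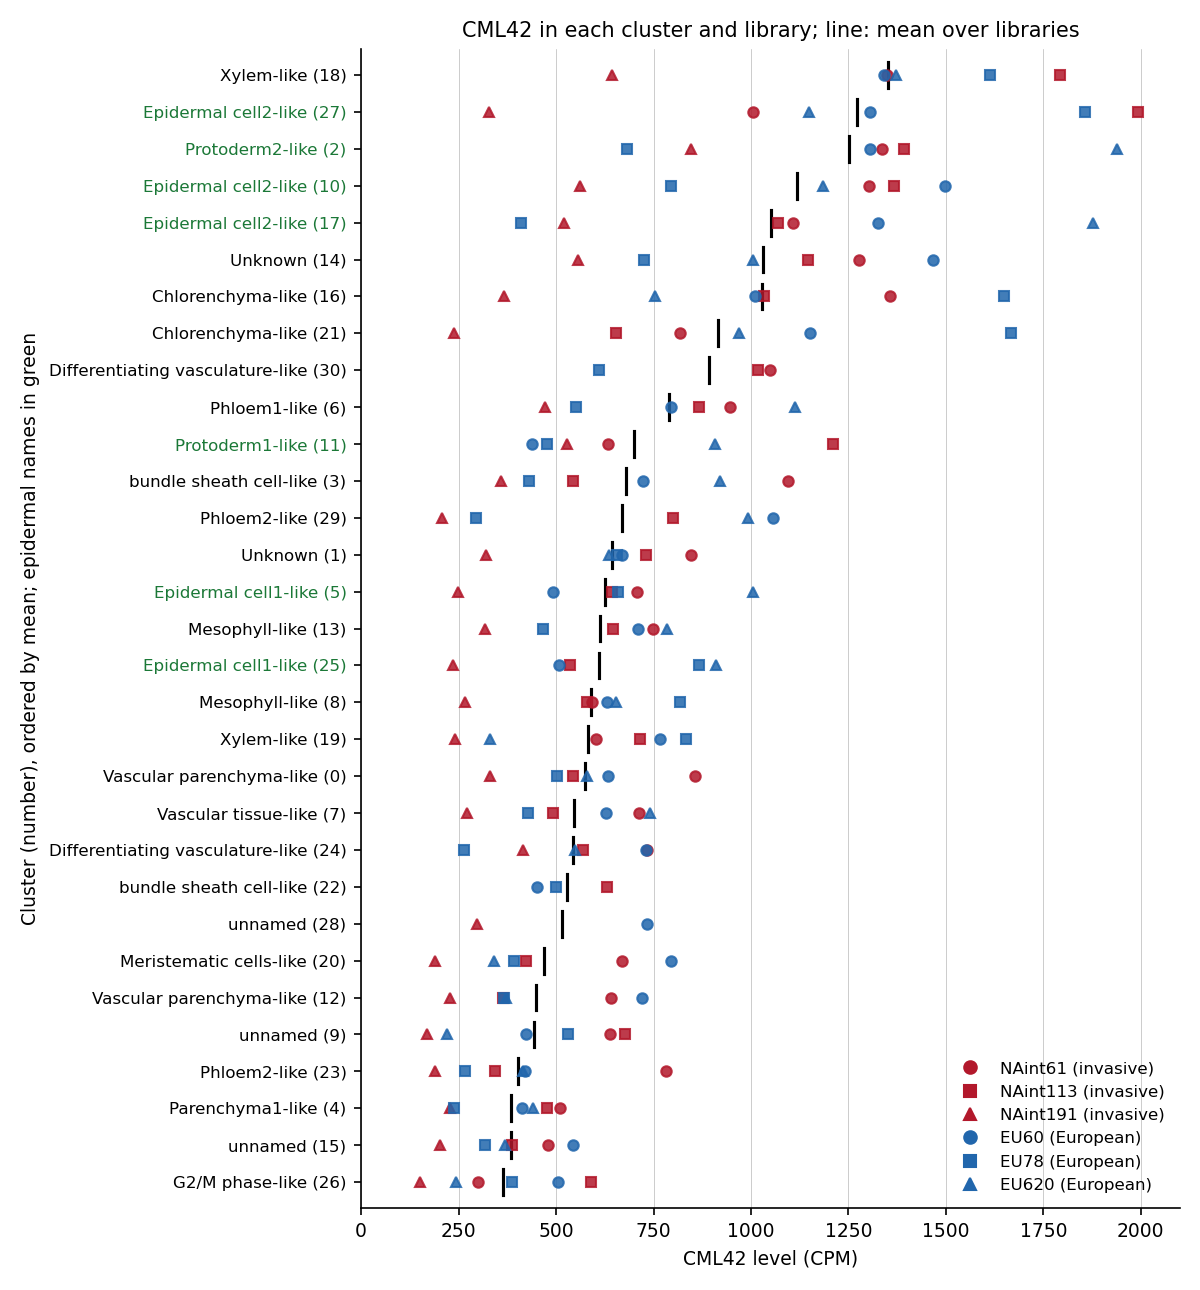
CML42 level (CPM, horizontal axis) in each of the 31 clusters, ordered by the mean over libraries (black line), with invasive libraries in red and European libraries in blue. Only libraries with at least 20 cells of a cluster are drawn, the mean lies between 363 and 1352 CPM, and NAint191 (red triangle) is usually the leftmost point.

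Among the classes not named as epidermal, Chlorenchyma-like cells averaged 960 ± 437 CPM, Xylem-like cells 895 ± 220 CPM and Phloem1-like cells 790 ± 242 CPM (SD, n = 6). The Xylem-like mean joins 2 unlike clusters, cluster 18 with its PDF1 and LTP3 (1352 CPM) and cluster 19 (582 CPM). The Chlorenchyma-like mean joins cluster 16 (1028 CPM) and cluster 21 (916 CPM), and the name of cluster 21 was not stable. A cluster with the same leading genes was unnamed at the finer clustering and with doublets kept. With CML42 allowed into the embedding it took the ground meristem name. Mesophyll-like cells had 601 ± 162 CPM, Vascular parenchyma-like cells, the most numerous class, 537 ± 157 CPM, Meristematic cells-like cells 469 ± 223 CPM and Parenchyma1-like cells, which were shallow at a median of 1562 UMIs per cell, 384.6 ± 122 CPM. The class means thus spanned 363 to 1250 CPM, and none was near 0.

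CML42 was compared with 6 genes that the study names beside it in the epidermal lineage. These are PDF1, LTP3, a homologue of the glycine-rich protein gene AT2G05540 (PaChr6.1298), CASPL2A1, a membrane protein of the Casparian strip family, KCS10, an enzyme that elongates fatty acids for cuticle and wax, and GGL12, a lipase of the GDSL type. For each gene the level in a cluster was expressed as a percentage of its level in its own highest cluster. For CML42 the lowest cluster stood at 26.8% and the median cluster at 45.3%, and 31 of 31 clusters were over 25%. For PDF1 the lowest cluster stood at 0.0484% and the median cluster at 0.437%, and 3 clusters were over 25%. LTP3 was over 25% in 3 clusters, the AT2G05540 homologue in 1, GGL12 in 2, CASPL2A1 in 6 and KCS10 in 8. Their median clusters stood between 0.401% (GGL12) and 4.24% (KCS10) of the highest. A second homologue of AT2G05540, PaChr6.1299, averaged only 12.5 CPM over clusters and reached 303 CPM in cluster 17. These 6 genes thus marked a few clusters, whereas CML42 was spread over all of them. The study took these genes from the same data, and KCS10 and CASPL2A1 are also markers by which the epidermal clusters were named. Their restriction to few clusters is therefore not independent of that choice.

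**Figure D4:**
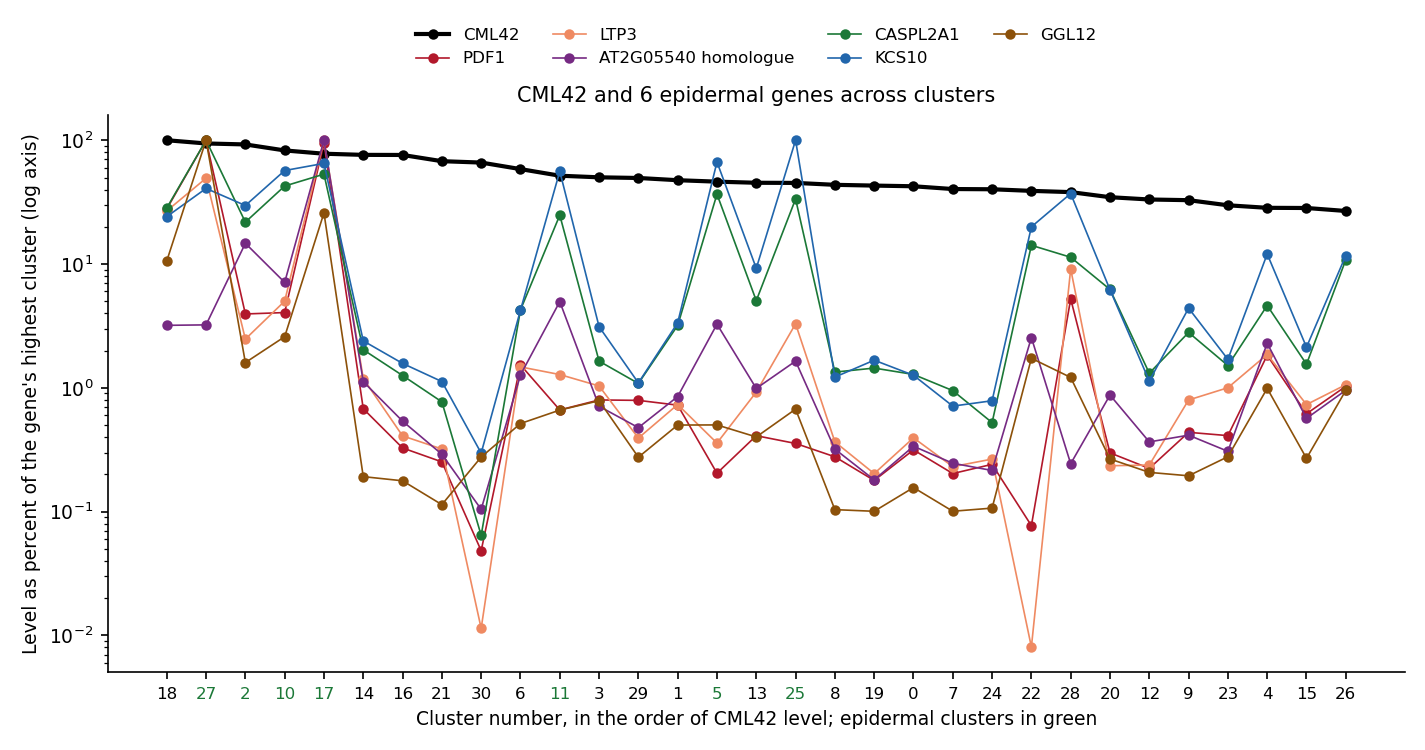
Level in each cluster as a percentage of the gene's own highest cluster (log axis), for CML42 (black) and 6 epidermal genes (colours), with clusters ordered by CML42 level and epidermal clusters labelled in green. CML42 does not drop below 26.8%, while the median cluster of the other 6 genes lies between 0.401% and 4.24%.

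The shallow gradient of CML42 was ordinary among expressed genes. Its highest cluster was 2.21-fold above its median cluster, against a median of 2.33-fold over the 7486 genes with a mean of at least 20 CPM, and 44.6% of those genes had a lower ratio. Over the 31 clusters, the Pearson correlation of CML42 with PDF1 (PaChr8.1038) was 0.56, with GGL12 0.55 and with LTP3 0.50. It was 0.47 with the AT2G05540 homologue, 0.34 with CASPL2A1 and 0.28 with KCS10. Further homologues of PDF1, PaChr1.150 and PaChr2.689, were highest in the Epidermal cell1-like cluster 25 and had r = 0.11 and 0.033 to CML42. These values are descriptive, since the clusters share libraries, and CML42 was chosen together with these genes. PDF1 (PaChr8.1038) also differed far more between libraries than CML42. In the whole shoot it had 345, 58.9 and 1213 CPM in NAint61, NAint113 and NAint191, against 128, 12.1 and 1405 CPM in EU60, EU78 and EU620. NAint191 was thus low in CML42 and high in PDF1, whereas EU620 was high in both.

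Within 1 class of cells, CML42 was also read against PDF1, here PaChr8.1038 alone. Cells were binned by their PDF1 UMIs after each was thinned at random to 2000 UMIs, the CML42 level was taken from all UMIs of the binned cells, and a library entered a bin with at least 20 cells. Epidermal cell2-like cells with 1 to 9 PDF1 UMIs had 1461 ± 487 CPM of CML42 and those with no PDF1 UMI 1055.5 ± 360.6 CPM (SD, n = 6 libraries each). Within libraries the cells with PDF1 were the higher ones in 6 of 6, by 1.19-fold to 1.77-fold. Cells of this class with 10 or more PDF1 UMIs were above those without in 5 of 5 libraries, by 1.09-fold to 1.55-fold. In Protoderm2-like cells, those with 1 to 9 PDF1 UMIs had 1784 ± 526.8 CPM and those without 1334 CPM in the same 4 libraries, and the cells with PDF1 were higher in 4 of 4, by 1.07-fold to 1.69-fold. Protoderm1-like cells with 1 to 9 PDF1 UMIs were higher in 2 of 2 libraries, by 1.29-fold to 1.81-fold. Xylem-like cells with 1 to 9 PDF1 UMIs were higher in 3 of 3, by 1.33-fold to 2.16-fold. The Xylem-like class joins the unlike clusters 18 and 19. Epidermal cell2-like cells likewise join cluster 10, with 360 CPM of PDF1, and clusters 17 and 27, with 8457 and 8888 CPM. The bins of these 2 classes can thus part clusters as well as cells within a cluster. Depth above 2000 UMIs was not matched between bins. Epidermal cell1-like cells with 1 to 9 PDF1 UMIs could be read in 2 libraries and were higher in 1 of them. CML42 was thus higher in the cells with PDF1 of each class read except Epidermal cell1-like. The cells without PDF1 carried it as well.

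At the level of single cells CML42 was common but not uniform. With cells thinned to 2000 UMIs, shallower cells left out, 61.97% of cells had at least 1 CML42 UMI in NAint61, 62.4% in NAint113 and 41.7% in NAint191, against 60.4% in EU60, 50.5% in EU78 and 60.4% in EU620. The Wilson 95% interval for NAint61, which covers counting error only, was 60.6% to 63.3%, and those of the other libraries were no wider. Without thinning the shares were 75.9%, 79.7% and 66.5% in NAint61, NAint113 and NAint191, against 78.4%, 74.8% and 80.5% in EU60, EU78 and EU620. NAint191 was lowest on both scales. The invasive mean after thinning was 55.4 ± 11.8% and the European mean 57.1 ± 5.76% (SD, n = 3 each), a difference of -1.75 points that was not separated from 0 (two-sided exact permutation p = 1).

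By class, the thinned share was largest in Protoderm2-like cells (mean 73.3% over 6 libraries, range 54.7% to 86.2%) and Epidermal cell2-like cells (68.7%). It was smallest in Phloem2-like cells (37.8%, range 13.5% to 55.3%) and G2/M phase-like cells (39.7%). No class is known to lack the gene, so the part of these shares due to free RNA in the droplets was not tested. The median depth of the thinned cells was 12432.5 UMIs in the Protoderm2-like class and 8234 UMIs in the Phloem2-like class before thinning. Within the epidermal clusters 63.3%, 71.3% and 48.5% of thinned cells had a UMI in NAint61, NAint113 and NAint191, against 62.7%, 54.0% and 75.2% in EU60, EU78 and EU620. In the other clusters these shares were 61.5%, 59.5% and 39.3% in the invasive libraries and 59.6%, 48.9% and 56.2% in the European libraries.

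A minority of cells carried much of the transcript. The 10% of cells with the most CML42 UMIs held between 45.8% (EU78) and 53.1% (EU620) of them in each library, counted without thinning. Cells with 10 or more CML42 UMIs made up 28.1%, 18.1% and 10.49% of NAint61, NAint113 and NAint191, against 27.3%, 20.08% and 34.2% of EU60, EU78 and EU620, again without thinning. Both of these measures also reflect depth, which differed between cells and between libraries. With depth made equal, the variance of CML42 UMIs per cell was 2.73, 3.02 and 1.77 times the mean in NAint61, NAint113 and NAint191, against 2.83, 2.74 and 2.92 times in EU60, EU78 and EU620, where independent sampling of a constant level would give 1. A constant level would have left 18.3% of NAint61 cells without a UMI at that depth, whereas only 61.97% of them had one, so cells differed in CML42 content beyond counting noise. In the epidermal clusters 3.93% of NAint113 cells and 3.36% of EU620 cells had 10 or more of their 2000 UMIs from this 1 gene, while no NAint191 cell did among the 1926 thinned.

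**Figure D5:**
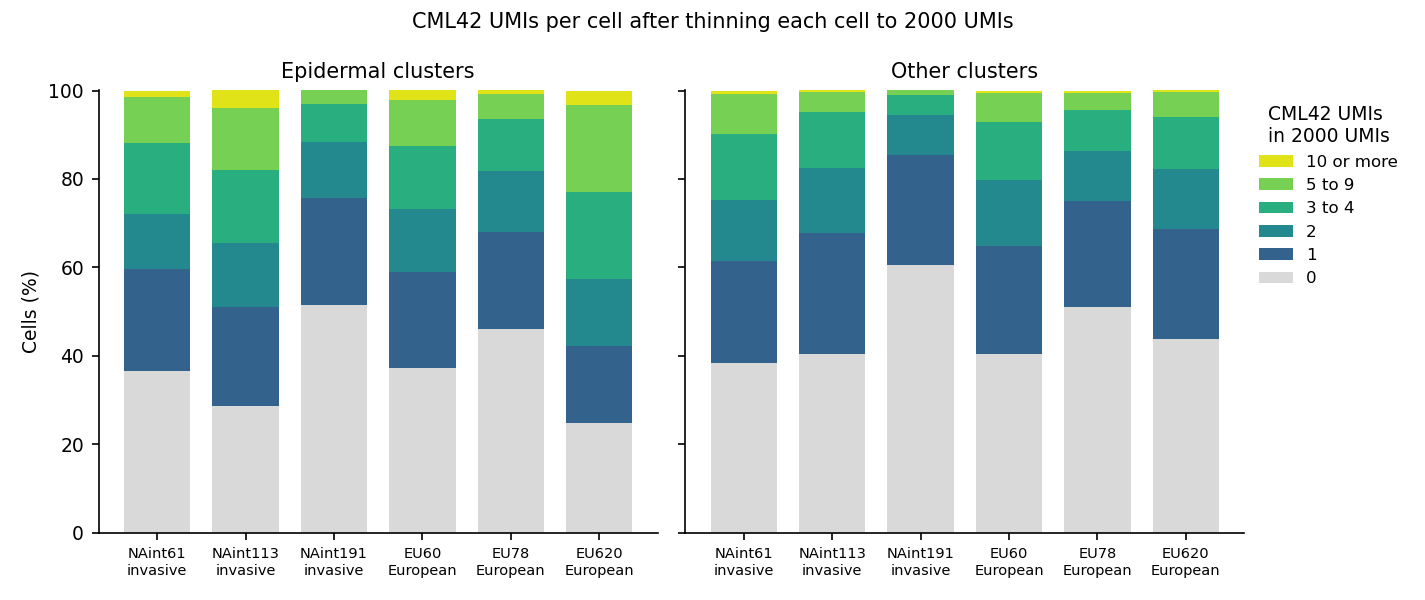
Percentage of cells (vertical axis) by the number of CML42 UMIs after thinning each cell to 2000 UMIs, in the epidermal clusters (left) and the other clusters (right), with the 3 invasive libraries left of the 3 European libraries. Grey is 0 UMIs, and the share of cells with a UMI lies between 48.5% (NAint191) and 75.2% (EU620) in the epidermal clusters.

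The largest contrast between libraries did not follow the populations. NAint191 had the lowest CML42 level in 22 of the 26 clusters that had at least 20 cells in every library, EU78 in 3 and EU60 in 1. The mean over these 26 clusters was 848, 817 and 353.4 CPM in NAint61, NAint113 and NAint191, against 825, 692 and 803 CPM in EU60, EU78 and EU620. Values that differ in NAint191 stand beside this: 3002 of its cells were removed as doublets, against 414 to 1636 in the other libraries, while its median depth, 7802 UMIs per cell, lay within the range of the others. Their part in the low level was not tested. EU78 was uneven. It was low in Protoderm2-like cells (681 CPM) and cluster 17 (410 CPM), but its Chlorenchyma-like cells (1660 CPM) and cluster 27 (1856 CPM) were among the highest of any library.

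The populations were compared by edgeR's quasi-likelihood test on UMIs summed per library, with mean reads per cell as a covariate and Benjamini-Hochberg adjustment over all genes. Over the whole shoot the log2 fold change of CML42, invasive over European, was -0.17 (SE 0.46, 95% interval -1.27 to 0.93, edgeR adjusted p = 0.91). In the epidermal clusters it was -0.10 (SE 0.58, interval -1.46 to 1.27, edgeR adjusted p = 0.96), and in the other clusters -0.20 (SE 0.42, interval -1.21 to 0.82, edgeR adjusted p = 0.88). CML42 was not called in any of the 3 comparisons (each interval reached past an absolute log2 change of 1, so a change of that size lay within the error of these 6 libraries). The ratio of epidermal to other clusters differed between populations by -0.058 on the log2 scale (two-sided exact permutation p = 0.7).

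edgeR called few genes. The whole-shoot comparison called 7 of 33264 genes (0.021%) by 2 thresholds, 0.05 for the adjusted p and 1 for the size of the log2 fold change, the other clusters 3 of 32683 (0.00918%), and the epidermal clusters 0 of 29377 (0%). Beside that 0, 3217 genes had an unadjusted p under 0.05 in edgeR. DESeq2 called many more by the same thresholds, 941 genes in the whole shoot (2.83%), 872 in the other clusters (2.67%) and 850 in the epidermal clusters (2.89%), and CML42 was not among them. The SD of log2 CPM of CML42 over the 6 libraries was 0.48 in the whole shoot, against a median of 0.57 over 7275 genes with at least 20 CPM, and 38.8% of these had a smaller SD. The spread of CML42 between plants was therefore not unusual for an expressed gene.

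Within batch 1, NAint113 stood above the mean of EU60 and EU78 by a log2 ratio of 0.22 in the whole shoot, 0.52 in the epidermal clusters and 0.014 in the other clusters. Within batch 2, NAint191 stood below EU620 by -1.23, -1.57 and -1.02 for the same cells. The sign thus differed between the batches, and batch 3 holds no European library. Leaving out NAint191 gave a log2 fold change of 0.10 in the whole shoot, 0.20 in the epidermal clusters and 0.064 in the other clusters, so the negative sign of the population difference rested on this library in all 3. In the epidermal clusters the sign also turned without NAint61 (0.062) and without EU620 (0.18). Leaving out NAint113 and EU620 together, the libraries of lowest and highest mean reads per cell, gave -1.23, -1.08 and -1.33, again with no call (edgeR adjusted p = 0.34, 0.41 and 0.30).

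The genes most like CML42 were sought by Pearson correlation of log2(CPM + 1) over the 31 clusters, among 7486 genes with a mean of at least 20 CPM. Such correlations share cells, libraries and depth, and carry no test. The median over all genes was -0.11, and 6 genes (0.0801%) exceeded 0.7. The closest was PaChr23.173 (r = 0.81), followed by PaChr1.657 (0.76), PaChr20.1065, a homologue of AT1G76070 (0.74), PaChr4.1170 (0.71), PaChr6.445 (0.71) and PaChr13.780 (0.70). PaChr23.173 and PaChr1.657 had even flatter patterns than CML42, with highest clusters 1.53-fold and 1.54-fold above their medians. The 20 closest genes reached down to r = 0.65. Of these 20, only PaChr20.1065, PaChr15.291 and PaChr21.606 could be given an Arabidopsis homologue here. PaChr15.291 (r = 0.70) is a homologue of the chitinase gene ATCHIA, whose enzyme class degrades chitin of fungal walls. PaChr21.606 (r = 0.65) is a homologue of CYP94B3, which in Arabidopsis inactivates the hormone jasmonoyl-isoleucine.

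These 20 genes depended on how likeness was measured. Spearman's correlation kept 11 of them, the correlation over clusters outside the epidermis 5, and the correlation over single cells 3. PaChr23.173 was first by Spearman's correlation (0.85) and also without the epidermal clusters (0.85). PaChr4.1170, which averaged 1336 CPM and was highest in Protoderm2-like cells (2348.3 CPM), was the closest gene over single cells, both over all cells (r = 0.29) and within the epidermal clusters (r = 0.39). Likeness between libraries was a different matter. When libraries were compared within clusters, only 1 of the 20 genes was again among the 20 closest. The genes most opposed to CML42 over clusters were PaChr5.497 (r = -0.81), PaChr4.1457, PaChr6.583, PaChr5.50 and PaChr9.273 (-0.77), whose highest levels lay in cluster 4 or cluster 9, both with few UMIs per cell.

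Lists of genes with a known role were described in the same way, by the median correlation with CML42 over clusters beside the -0.11 of all genes. These lists were drawn up with earlier results of these data known, and their correlations are not independent evidence of a role. Epidermal identity genes, which include homologues of PDF1, PDF2, HDG2 and MIXTA, had a median r of 0.36, and 9 of 9 were above 0. Without the epidermal clusters their median was -0.060 and 4 of 9 were above 0. Cuticle and wax genes had a median of 0.39, and 42 of 43 were above 0. Without the epidermal clusters their median was 0.097 and 33 of 43 were above 0, and in both lists the likeness was smaller outside these clusters. Some genes of both lists, such as KCS10 and the homologue of HDG2, are also markers by which the epidermal clusters were named. Leaving out clusters named by these genes lowers their likeness by choice of cells, so no conclusion is drawn from the drop. The calcium sensors, relatives of CML42 in function, were less alike over all clusters, with a median of 0.12 and 7 of 12 above 0. Calcium targets and transport genes had a median of 0.084 (4 of 7 above 0) and wound, jasmonate and touch genes 0.16 (17 of 26). Without the epidermal clusters this order changed. The medians were then 0.20 for calcium sensors (9 of 12 above 0), -0.21 for calcium targets and transport genes (3 of 7) and 0.15 for wound, jasmonate and touch genes (22 of 26). Photosynthesis genes (-0.43, 0 of 22 above 0) and cell cycle genes (-0.45, 0 of 4 compared) ran the other way.

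Among the calcium sensors, the highest correlation was that of PaChr22.177, a homologue of the calmodulin-like gene CML11 (r = 0.44), whose level was also highest in Protoderm2-like cells at 354 CPM. A second homologue of CML11, PaChr23.857, was more abundant, at a mean of 1407 CPM against 121 CPM. It was also highest in Protoderm2-like cells (2887 CPM), but had r = 0.13 to CML42. The homologue of KIC, PaChr8.1464, encodes in Arabidopsis the partner of CML42. It averaged 1247 CPM over clusters but was highest in cluster 1, of the unclassified type (3014 CPM), with r = 0.24 to CML42. The gene is 1 of the markers by which cluster 1 was named, and it is also a ground meristem marker of the study. Its peak is therefore not independent of that name. In the whole shoot it had 1946, 1183 and 1692 CPM in NAint61, NAint113 and NAint191, against 341, 506 and 1674 CPM in EU60, EU78 and EU620. EU620 lay with the invasive libraries, and the log2 fold change, 1.56 (SE 0.45), was not called (edgeR adjusted p = 0.49). NAint61 and EU620, the libraries of highest CML42 level, were among those high in this gene, but so was NAint191, the lowest in CML42.

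edgeR called none of the genes of the 7 lists between the populations in any of the 3 comparisons, which is 0 of 9 epidermal identity genes, 0 of 44 cuticle and wax genes, 0 of 13 calcium sensors, 0 of 7 calcium targets, 0 of 26 wound, jasmonate and touch genes, 0 of 22 photosynthesis genes and 0 of 13 cell cycle genes in the whole shoot. The median log2 fold change there was -0.55 for wound, jasmonate and touch genes, -0.37 for epidermal identity genes, -0.20 for calcium sensors, -0.10 for calcium targets and transport genes, 0.17 for cuticle and wax genes, 0.42 for cell cycle genes and 2.27 for photosynthesis genes, against 0.043 for all genes. The summed level of the wound, jasmonate and touch genes, which respond to cutting and digestion of tissue, was 9949, 10372 and 10340 CPM in NAint61, NAint113 and NAint191, against 9629, 11754 and 11084 CPM in EU60, EU78 and EU620. Photosynthesis genes summed to 1897, 165 and 3333 CPM in the invasive libraries and 255, 159 and 5017 CPM in the European libraries, in the same order. The libraries of batches 2 and 3 were thus high in photosynthesis genes and those of batch 1 low, and the part of this in the CML42 level was not tested.

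Genes with neighbouring identifiers did not share the pattern. The next in number, PaChr3.1220, averaged 87.2 CPM over clusters, ranged between 53.5 and 132 CPM and had r = -0.062 to CML42. The one before, PaChr3.1218, averaged 23.03 CPM and was highest in the Mesophyll-like cluster 8 (113 CPM), with r = -0.44. The other 8 of the 5 genes on either side averaged under 20 CPM, at most 17.5 CPM (PaChr3.1217), and fell below the minimum for a correlation. CML42 was therefore the only abundant transcript of these 11 genes.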

How the data were processed

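The authors aligned the reads with Cell Ranger 8.0 to a slightly modified published reed assembly and deposited raw UMI counts per gene and cell, not normalized. Cells with fewer than 500 genes or over 30% of UMIs on the 77 features of unplaced scaffolds were removed here, and then the share of doublets the study gives per library, from the top of Scrublet scores (scanpy 1.11.5). Pearson residuals of 3000 variable genes gave 35 components, aligned with an implementation of Harmony and clustered at a resolution of 0.8 (Seurat 5.3.0). Clusters were named by the study's markers, which it found in these same libraries, so shares and levels by name rest on rebuilt names. Library depth was 76329872 to 123399795 UMIs in retained cells, and counting error in sums is small. PCR duplicates are removed by UMIs.

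Members and lists were chosen with earlier results of these data known. Named genes are CML42, the 20 genes of highest and the 5 of lowest correlation, the epidermal genes of the study, list genes past a test, and 5 genes on either side. The calcium sensors named beyond these were chosen after their values were seen. Gene names come from the study's tables, and no sequence of this gene was used. edgeR 4.0.16 (R 4.3.3, TMM, genes under 10 counts in every library left out) was the main test. Its standard error is the absolute log2 fold change divided by the square root of F. On simulated data of the whole-shoot comparison (32374 genes), edgeR recovered 100% of 200 genes changed 4-fold, with 7 false calls. The simulation gave all genes the same dispersion and no batch differences, and changed only genes with many counts. Its recovery is thus not the power of these libraries to find such changes. Alternatives were DESeq2 1.42.0, RLE normalization, no filter, no covariate, the batch label, a replicate block, each library left out, doublets kept, a resolution of 1.2, and CML42 allowed into the embedding. Permutation tests were two-sided and exact over libraries (scipy 1.17.1). Libraries are single plants, and neither the main edgeR model nor the permutation tests hold a batch term. The p-values thus measure the spread between libraries, in which plant and batch are mixed. The labels call the digested tissue a rhizome tip in the protocol and a shoot elsewhere.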

Additional observations from a re-analysis of the deposited data

How the results depend on the processing

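CML42 was called under none of 15 alternatives in the whole shoot, 18 in the epidermal clusters and 14 in the other clusters (adjusted p at least 0.34, 0.41 and 0.30). Its log2 fold change ranged over all of them between -1.23 and 0.10, -1.08 and 0.20, and -1.33 and 0.064. The lower ends came from leaving out NAint113 and EU620 together, an alternative chosen after seeing the data. Leaving out each replicate in turn gave -0.45 to 0.10 in the whole shoot, with the sign reversed without invasive replicate 3 (0.10). The epidermal clusters gave -0.58 to 0.20, reversed without invasive replicate 1 (0.062), invasive replicate 3 (0.20) and European replicate 3 (0.18), and the protoderm clusters alone gave 0.029. In the other clusters it gave -0.38 to 0.064, reversed without invasive replicate 3 (0.064). The difference in the share of cells with a UMI ranged from -5.27 to 5.07 points and was reversed without invasive replicate 3 (5.07). With 1 replicate left out, the joined protoderm over epidermal cell log2 ratio stayed between 0.22 and 0.39 (0.20 with doublets kept), that of the classes numbered 2 between 0.031 and 0.19, and the Protoderm2-like level between 1112 and 1364 CPM.

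The number of genes called moved more than the values of CML42. In the whole shoot edgeR called 7 genes, 2 without the covariate, 2 with the batch label, 3 with RLE normalization and 0 to 3 with 1 replicate left out, and DESeq2 called 941. For the epidermal clusters edgeR called 0, 9 without the filter and 0 with 1 replicate left out, and DESeq2 called 850. The cause was not tested. A replicate block gave -0.086, -0.052 and -0.11 for CML42 in the 3 comparisons and 0 calls in the whole shoot. The deviations of same-numbered libraries correlated at 0.0098 (NAint61 with EU60), 0.69 (NAint113 with EU78) and 0.77 (NAint191 with EU620). The pairs at 0.69 and 0.77 also share a batch label. NAint113 and EU60, of the same batch label but unlike numbers, correlated at 0.50. Whether the replicate numbers pair the libraries was not tested apart from the batch label. Of the 20 genes most like CML42, 11 were shared under Spearman's correlation, 3 over single cells and 5 without the epidermal clusters. For CML42, a population difference of an absolute log2 change of 1 lay within the intervals of 3 plants against 3.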
